A study of Mus musculus with 3 samples.

Results

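The 85 genes described here are nuclear genes of oxidative phosphorylation, chosen from the 22734 named genes of the deposited table by a rule on their symbols that uses no measured value. They are the genes whose names begin with the stems of the complex I subunits (Ndufa, Ndufb, Ndufc, Ndufs and Ndufv), the 4 genes Sdha to Sdhd of complex II, the Uqcr genes and Cyc1 of complex III, the Cox4 to Cox8 genes of complex IV and the Atp5 genes of complex V. By complex they number 35, 4, 9, 20 and 15. Ndufa4 and Ndufa4l2 were placed in complex IV, to which the Ndufa4 protein belongs in spite of its name. Atp5s and Atp5sl carry the ATP synthase stem but encode no subunit of the enzyme, and were kept apart as 2 further genes. Of the 85 genes, 75 encode broadly expressed subunits and 8 encode isoforms known for restriction to certain tissues or conditions. No gene of the mitochondrial genome was among those analysed here.

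Oxidative phosphorylation takes place in the inner mitochondrial membrane. Complexes I and II pass electrons from NADH and succinate to coenzyme Q, complex III passes them on to cytochrome c, and complex IV, cytochrome c oxidase, reduces oxygen. Complexes I, III and IV pump protons as they do so, and complex V, the ATP synthase, uses the proton gradient to make ATP. Most subunits are encoded in the nucleus, and several subunits of complex IV exist as a common form and as forms used in muscle, brown fat, lung or testis. In pancreatic ductal tumours the balance of glycolysis and respiration has been studied as a part of tumour metabolism.

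RNA-seq was made from 3 mouse pancreatic tumour cell lines, with 1 library each. HI-Panc-M was labelled as the metastatic stage, HI-Panc-I as the invasive stage and HI-Panc-L as the localized stage of tumour progression. All 3 lines share 1 transgenic genotype, which includes p16-/-, were derived from tumours of transgenic mice without immortalization, and were grown in DMEM with 10% FBS. The treatment text for all 3 describes cobalt chloride, a chemical used to mimic hypoxia, at 100 ng/ml for 24 h, and gives no untreated partner. As tissue, the labels give Liver for HI-Panc-M, pancreatic tissue for HI-Panc-I and Body wall for HI-Panc-L. The stage label set the groups here, and the tissue labels of HI-Panc-L and HI-Panc-I are at odds with their stages. If those 2 libraries were exchanged, every sign for invasive against localized would turn and Cox7a1 would no longer be lower at each stage. This was not tested. The sources used here do not say whether a line is 1 clone. The study was laid out to follow gene expression from the localized to the metastatic stage in lines of 1 background.

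With 1 library per stage (n = 1) there is no replicate check, no SD and no p-value, and every difference below compares these libraries only. Values are FPKM (fragments scaled to transcript length and library depth), and differences are in log2(FPKM + 1), which understates the change of low genes. Steps in the lowest values gave estimated depths of 45400000, 41100000 and 43400000 fragments for the localized, invasive and metastatic libraries. Of 8 markers of ductal and simple epithelium, 5, 8 and 8 reached 1 FPKM in that order, with summed levels of 1213, 6335 and 6822 FPKM. The 8 fibroblast markers summed to 565, 90.4 and 13.9 FPKM, with none at 0 in the localized and invasive libraries and Lum and Thy1 at 0 in the metastatic library. The 5 hepatocyte markers summed to 0.101, 0.0844 and 0.160 FPKM. The localized library thus had a lower sum of epithelial markers than the other 2. The summed fibroblast markers fell at each step from localized to invasive to metastatic. The part of these epithelial and fibroblast markers in the differences below was not tested. Fewer cells of a kind and less RNA per cell cannot be told apart in such libraries.

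The genes were expressed at high levels in every line. Together the 85 genes summed to 13714, 14291 and 15383 FPKM in the localized, invasive and metastatic libraries, or 2.40%, 2.48% and 2.72% of all FPKM. The metastatic sum was 1.12 times the localized sum and 1.08 times the invasive sum, and the invasive sum was 1.04 times the localized sum. Complex V had the largest sum, with 4564, 5004 and 5431 FPKM, followed by complex IV (3609, 3610 and 3997 FPKM) and complex I (3598, 3603 and 3735 FPKM). Complex III had 1485, 1567 and 1707 FPKM and complex II 444, 492 and 498 FPKM. In each complex the metastatic library had the highest sum, and the invasive sums of complexes I and IV were 1.00 times the localized sums. The cytosolic ribosomal protein genes, another set of short and abundant transcripts, went the other way, with 106408, 96610 and 92144 FPKM.

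**Figure D1:**
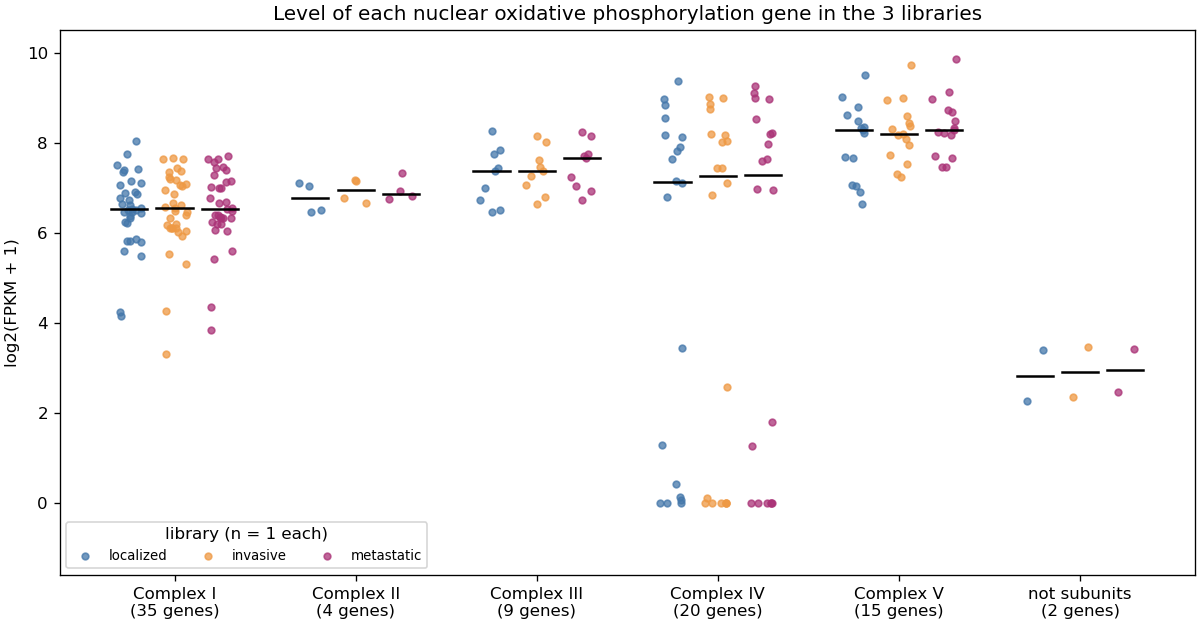
Each point is 1 gene in 1 library, with log2(FPKM + 1) on the vertical axis, the genes split by complex on the horizontal axis, colours for the 3 libraries (n = 1 each) and a black line at the median of each group. Most genes sit above 50 FPKM in all 3 libraries, and the low points of complex IV are the tissue isoforms.

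Levels were uneven within each complex but alike between libraries. By mean over the libraries, the highest gene was Atp5b, the catalytic beta subunit of the ATP synthase, with 725, 838 and 923 FPKM in the localized, invasive and metastatic libraries, and Atp5g1, a c ring gene, was the lowest of complex V with 130.0, 149.8 and 175 FPKM. In complex IV the highest was Cox8a with 661, 509 and 504 FPKM. In complex III the small subunit Uqcrh led with 304, 282 and 299 FPKM and Uqcrfs1, the Rieske iron-sulphur protein, was lowest with 87.0, 98.8 and 104 FPKM. In complex II the values ran from Sdha, the flavoprotein that oxidises succinate, with 89.7, 101 and 111 FPKM, to Sdhd, a membrane anchor, with 131, 144 and 120.3 FPKM. In complex I they ran from Ndufs5, an accessory subunit, with 16.7, 8.94 and 13.4 FPKM, to Ndufa2, another accessory subunit, with 215, 201 and 197 FPKM. In all, 71 of the 85 genes stood at 50 FPKM or more in every library, and only 4 broadly expressed subunits, Ndufa11, Ndufs1, Ndufs4 and Ndufs5, fell below that in some library. Atp5s (3.77, 4.09 and 4.49 FPKM) and Atp5sl (9.58, 10.03 and 9.76 FPKM), which are not subunits, were far lower.

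Genes averaging 1 FPKM or more across the libraries entered the comparisons. Of the 85, 78 did so, and the other 7 are all tissue isoforms of complex IV: Cox4i2, Cox6a2, Cox6b2, Cox7b2, Cox8b, Cox8c and Ndufa4l2. Of these 78, 71 (91%) differed by less than 1.5-fold between every pair of libraries, against 64.4% of all 11404 genes past the same filter and 70.8% of the 1803 genes with a mean of at least 50 FPKM. The 7 genes at least 1.5-fold apart in some pair were Atp5j, Atp5o, Cox7a1, Ndufb8, Ndufs5, Ndufv3 and Sdhc. The metastatic library held the highest value for 44 of the 78 genes (56.4%, against 31.3% of all genes), the invasive library for 12 (15.4%, against 27.2%) and the localized library for 22 (28.2%, against 41.6%). These shares follow in part from small differences, most of them within 1.5-fold.

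The invasive library was close to the localized library for most of these genes. Only Atp5o was at least 2-fold higher (1 of 78, against 8.78% of all genes) and none was at least 2-fold lower (0 of 78, against 6.07%; 14.8% of all genes in either direction). At 1.5-fold, 4 genes were higher (15.1% of all genes were) and 3 lower (11.9% were), or 7 in either direction (27.1% of all genes were). The median difference was 0.06, with a range of -0.87 to 1.16, where all genes had a median of 0.00 and a range of -6.64 to 8.39. By complex the medians were -0.03 for complex I, 0.15 for II, 0.18 for III, 0.01 for IV and 0.19 for V.

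The metastatic library differed from the localized library in 4 genes at 2-fold. Atp5o, Atp5j and Ndufv3 were higher (3 of 78, against 9.08% of all genes) and Cox7a1 was lower (1 of 78, against 7.29%). At 1.5-fold Sdhc joined the higher genes (4 of 78, against 15.9%) and Ndufb8 the lower ones (2 of 78, against 14.1%). In either direction 4 of 78 passed 2-fold, against 16.4% of all genes, and 6 of 78 passed 1.5-fold, against 30%. Next in order on the positive side was Ndufb10, an accessory subunit of complex I, with 173 against 116 FPKM. On the negative side, after Cox7a1 and Ndufb8, stood Ndufb6, another accessory subunit (74.6 against 99.1 FPKM in the metastatic and localized libraries), Cox8a (504 against 661 FPKM) and Atp5l, subunit g of the ATP synthase (300 against 388 FPKM). The median was 0.13, against 0.00 for all genes, and 64.1% of the genes had a positive difference, against 50.4% of all genes. The medians by complex were 0.05 for complex I, 0.09 for II, 0.31 for III, 0.14 for IV and 0.32 for V. Both comparisons use the same localized library, so they are not independent of each other.

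The metastatic and invasive libraries were the closest pair. In log2(FPKM + 1), no gene was at least 2-fold higher (0 of 78, against 1.33% of all genes) or lower (0 of 78, against 1.67%; 3.01% in either direction). The plain FPKM ratio of Cox7a1 was 0.498, just past 2-fold. At 1.5-fold 0 were higher (against 3.51%) and only Cox7a1 was lower (1 of 78, against 5.35%; 8.86% in either direction). The median was 0.09, against -0.01 for all genes, and 74.4% of the genes had a positive difference, against 48.6% of all genes. The largest positive differences were those of Ndufs5 (13.4 against 8.94 FPKM in the metastatic and invasive libraries), Atp5k, subunit e of the ATP synthase (422 against 293 FPKM), Cox6a1, the common form of COX6A (608 against 430.3 FPKM), the complex III subunit Uqcrq (213 against 164 FPKM) and Ndufa4 (367 against 291 FPKM). On the negative side, after Cox7a1, stood the X-linked complex I subunit Ndufb11 (90.5 against 130.03 FPKM), Sdhd (120.3 against 144 FPKM), the core protein Uqcrc1 (129.5 against 151 FPKM) and the X-linked complex I subunit Ndufa1 (80.7 against 92.3 FPKM).

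**Figure D2:**
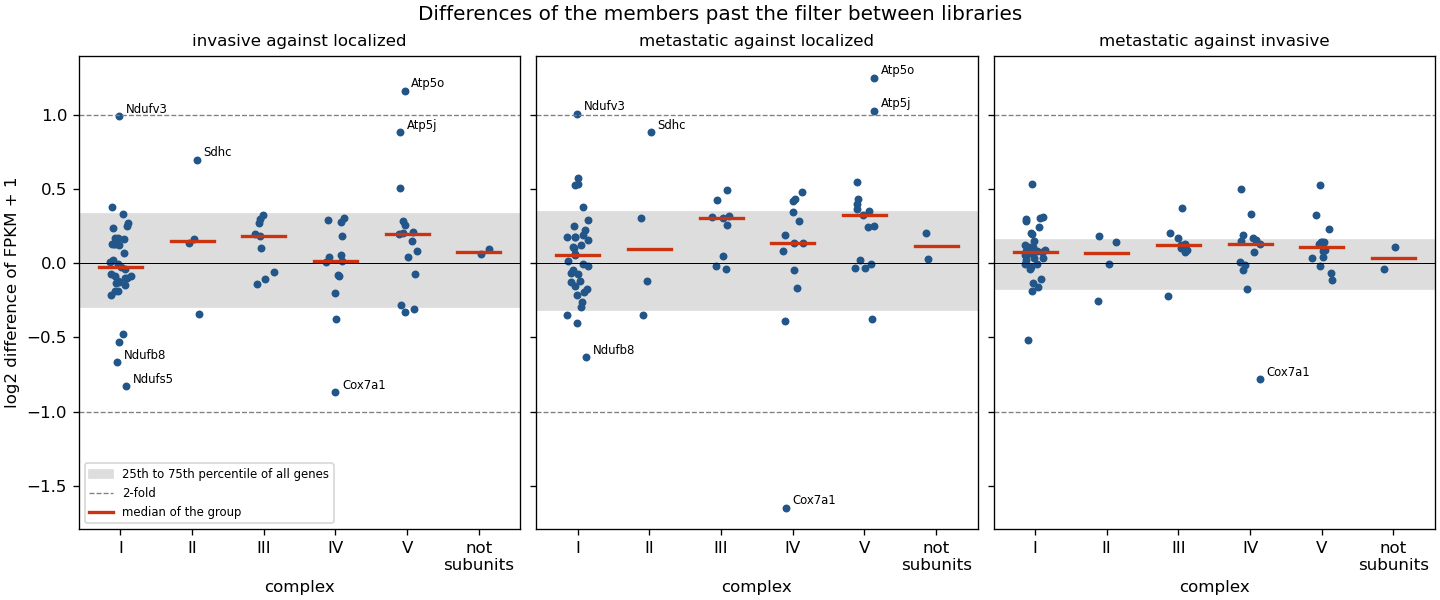
Each point is 1 gene past the filter, with its log2 difference between 2 libraries (n = 1 each) on the vertical axis and its complex on the horizontal axis; red lines are group medians, grey bands the 25th to 75th percentile of all genes, and dashed lines 2-fold. Genes at least 1.5-fold apart are named, and in the third panel all but Cox7a1 lie within 1.5-fold.

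Parts of a complex, grouped by role after the values were seen, did not all move alike. Of the 7 core subunits of complex I, which carry the flavin and the iron-sulphur clusters, 4 were negative and 3 positive for invasive against localized, with a median of -0.19. Ndufv1, which binds the flavin, was the lowest of them at -0.53, with 91.7, 63.2 and 78.7 FPKM in the localized, invasive and metastatic libraries. The 4 catalytic and core proteins of complex III were all positive against the localized library, with medians of 0.28 (invasive) and 0.34 (metastatic). The 5 small subunits of complex III had a median of -0.06 for invasive against localized, with 3 of them negative, and 0.31 for metastatic against localized. Of the 4 core proteins, Cyc1, cytochrome c1, had the largest of these differences, with 106, 132 and 149 FPKM. In the F1 head of the ATP synthase, Atp5d, the delta subunit of the central stalk, had 201, 286 and 294 FPKM, and the median of the 5 head genes was 0.21 (invasive) and 0.35 (metastatic) against the localized library. The 3 other membrane subunits, Atp5j2, Atp5k and Atp5l, were all negative for invasive against localized, with a median of -0.31.

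The peripheral stalk of the ATP synthase, which holds the head still against the turning c ring, had the largest differences of any such part. Over its 4 genes the median difference from the localized library was 0.57 (invasive) and 0.71 (metastatic). Atp5o, the subunit OSCP at the top of the stalk, had 119, 268 and 285 FPKM in the localized, invasive and metastatic libraries, so that the localized library stood alone at the low end. Its invasive level was 2.25 times the localized level (95% counting interval 2.14 to 2.36) and its metastatic level 2.39 times (2.27 to 2.51). Atp5j, coupling factor 6, had 98.9, 183 and 202 FPKM, and its ratios were 1.85 (1.76 to 1.95) and 2.05 (1.95 to 2.15). The other 2 stalk genes differed less, with 132, 158 and 174 FPKM for Atp5f1, subunit b, and 297, 329 and 354 FPKM for Atp5h, subunit d. Both of the large differences thus set the localized library apart, while the metastatic library differed from the invasive one by 0.09 for Atp5o and 0.14 for Atp5j. Intervals here are Clopper-Pearson intervals from estimated fragments, and cover counting error only. Atp5o has 1 pseudogene copy of at least 95% identity, so its level is less certain than its intervals show.

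In complex I, Ndufv3, an accessory subunit beside the flavin site, followed the same order. It had 86.8, 173 and 175 FPKM in the localized, invasive and metastatic libraries, with ratios to the localized library of 1.99 (95% counting interval 1.88 to 2.11) and 2.02 (1.91 to 2.14). Ndufb8, an accessory subunit of the membrane arm, went the other way with 260.01, 163 and 167 FPKM, ratios of 0.628 (0.597 to 0.661) and 0.643 (0.612 to 0.676). Ndufs5 was lower in the invasive library alone by more than 1.5-fold, at a ratio of 0.536 (0.433 to 0.662) to the localized library, but its level was low and its sequence has a near-identical pseudogene copy. In complex II, Sdhc, a membrane anchor, had 86.4, 141 and 160.0 FPKM, ratios of 1.63 (1.55 to 1.71) and 1.85 (1.76 to 1.95). Its partner Sdhb, the iron-sulphur subunit, had 137, 108 and 107 FPKM, so 2 subunits of 1 complex moved in opposite directions.

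Promoter windows are shown for 5 of the 7 genes at least 1.5-fold apart in some pair, since nuclear genes of respiration are known for binding sites of NRF1, of the ETS factor GABP and of YY1 near their start. Each window runs from 250 bases before the start of transcription to 50 bases after it, 5′ to 3′ on the strand of the gene, from RefSeq on GRCm38.p6. Capitals mark matches, on either strand, to the 10-letter NRF1 palindrome, in which 1 inner base is free, or to CCGGAAG (GABP), AAGATGGC (YY1) or TCAAGGTCA (oestrogen-related receptors).
Atp5o, chr16:91931581-91931880, minus strand: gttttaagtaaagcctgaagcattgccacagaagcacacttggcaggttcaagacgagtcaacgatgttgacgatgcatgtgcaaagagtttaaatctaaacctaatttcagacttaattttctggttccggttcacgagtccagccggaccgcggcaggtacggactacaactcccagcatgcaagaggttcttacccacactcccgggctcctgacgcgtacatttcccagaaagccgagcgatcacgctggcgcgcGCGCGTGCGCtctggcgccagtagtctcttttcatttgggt
Atp5j, chr16:84835576-84835875, minus strand: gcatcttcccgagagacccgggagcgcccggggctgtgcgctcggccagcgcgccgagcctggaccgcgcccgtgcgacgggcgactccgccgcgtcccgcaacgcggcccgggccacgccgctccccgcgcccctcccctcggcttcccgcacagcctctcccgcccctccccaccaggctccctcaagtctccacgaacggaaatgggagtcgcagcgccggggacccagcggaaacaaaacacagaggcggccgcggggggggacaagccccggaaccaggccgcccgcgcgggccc
Ndufv3, chr17:31519865-31520164, plus strand: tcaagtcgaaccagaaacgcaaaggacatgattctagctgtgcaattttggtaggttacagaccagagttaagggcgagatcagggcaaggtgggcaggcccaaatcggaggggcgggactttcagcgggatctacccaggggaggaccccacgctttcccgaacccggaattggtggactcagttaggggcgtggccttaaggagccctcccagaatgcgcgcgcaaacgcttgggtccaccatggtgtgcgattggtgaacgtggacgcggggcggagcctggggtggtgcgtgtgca
Ndufb8, chr19:44555393-44555692, minus strand: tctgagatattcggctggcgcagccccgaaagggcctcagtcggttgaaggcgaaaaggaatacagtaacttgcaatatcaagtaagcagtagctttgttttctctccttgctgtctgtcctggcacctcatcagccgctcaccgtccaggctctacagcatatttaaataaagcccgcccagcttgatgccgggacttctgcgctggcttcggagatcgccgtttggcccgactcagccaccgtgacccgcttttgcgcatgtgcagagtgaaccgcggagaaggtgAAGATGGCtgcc
Cox7a1, chr7:30183921-30184220, plus strand: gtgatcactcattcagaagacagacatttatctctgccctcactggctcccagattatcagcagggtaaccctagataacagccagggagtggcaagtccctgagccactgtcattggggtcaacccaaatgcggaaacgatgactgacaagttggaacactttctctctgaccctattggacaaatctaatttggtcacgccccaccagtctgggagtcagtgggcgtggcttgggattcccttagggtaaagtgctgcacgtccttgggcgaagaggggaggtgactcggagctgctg

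The window of Atp5o holds 1 match to the NRF1 letters, on the strand opposite to the one printed, which begins at base 260 of the window, and that of Ndufb8 holds 1 match to the YY1 letters, which begins at base 289. Those of Atp5j, Ndufv3 and Cox7a1 hold none of the 4 motifs. Among the genes at least 1.5-fold apart but not shown, Ndufs5 has a window with 1 match to the NRF1 letters. Sdhc has no listed window. Of the 85 genes, 69 had a listed window, and taking 1 window per gene, 16 of them (23.2%) held the NRF1 letters, against 11.2% of the 9149 genes past the filter that had a window and 4.6% of all 32851 windows. The YY1 letters were in 14.5% of the 69, against 5.04% and 2.75%, and the GABP letters in 21.7%, against 19.6% and 8.86%. The letters for the oestrogen-related receptors were in 2 of the 69 (2.9%, against 0.251% and 0.423%). No window of these genes held overlapping matches to the GABP and YY1 letters. A match is a description of the letters and not a bound site, and the genes that differed most between libraries include windows with a match and windows without one.

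Among the genes for these transcription factors and their partners, none past the filter differed by 2-fold. Nrf1 had 13.8, 14.9 and 13.0 FPKM in the localized, invasive and metastatic libraries, and Yy1 42.4, 42.6 and 49.3 FPKM. Gabpa, the DNA-binding subunit of GABP, had 10.03, 15.2 and 17.9 FPKM, while its partner Gabpb1 had 15.7, 12.1 and 10.2 FPKM. Esrra, an oestrogen-related receptor, had 20.7, 25.4 and 26.2 FPKM. The coactivator Ppargc1a was near 1 FPKM in each library, with 0.691, 0.755 and 1.29 FPKM, its relative Ppargc1b had 0.0691, 0.878 and 0.813 FPKM, and Pprc1 had 21.4, 13.8 and 13.8 FPKM. For metastatic against localized, 0 of the 12 regulators past the filter were 2-fold apart in either direction (16.4% of all genes were), and at 1.5-fold Gabpa was higher and Pprc1 lower.

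The 2 stalk genes lie 7.10 Mb apart on distal chromosome 16, where the genes around them differed in the same direction. Atp5o (ENSMUSG00000022956.11) spans positions 91925214 to 91931687 of GRCm38 on the minus strand, and Atp5j (ENSMUSG00000022890.13) spans 84827866 to 84835625, also on the minus strand. GENCODE lists a second, longer entry under the symbol Atp5o, so the row of the table may hold reads of both. Of 33 genes past the filter within 2.5 Mb of the Atp5o start, 27 exceeded the localized level by 1.5-fold or more in the invasive library and 0 were that much lower, with a median of 0.81. For metastatic against localized the counts were again 27 and 0, with a median of 1.07. Of all genes, 15.1% were that much higher and 11.9% lower in the invasive comparison, and 15.9% and 14.1% in the metastatic one. Sod1, superoxide dismutase, which lies in this window, had 212, 419 and 499 FPKM in the localized, invasive and metastatic libraries. The mitochondrial ribosomal gene Mrps6, 127 kb from Atp5o, had 127, 117 and 116 FPKM and did not share the difference.

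Atp5j starts 0.70 kb from Gabpa, which is read from the opposite strand, and the annotated starts of the 2 genes overlap, so reads there cannot be told apart. Only 4 genes past the filter lie within 2.5 Mb of it. For metastatic against localized 3 were at least 1.5-fold higher (against 15.9% of all genes) and 1 lower (against 14.1%). These were Mrpl39, of the mitochondrial ribosome (11.4, 19.4 and 22.1 FPKM), Gabpa, and App, the amyloid precursor protein (76.0, 257 and 323 FPKM), which were higher, and the junction gene Jam2, which was lower. The 62 genes past the filter from 2.5 Mb before the Atp5j gene to the end of the chromosome include Atp5o and Atp5j. Their medians were 0.81 (invasive) and 1.04 (metastatic) against the localized library. The 288 genes of the rest of chromosome 16 had -0.03 and 0.07. This boundary was set from Atp5j. Among the 288, Hspa13, Nrip1, Usp25, Cxadr, Btg3 and D16Ertd472e, 13.4 to 16.2 Mb from the Atp5o start, were also higher in both comparisons. Robo2, 17.5 Mb from it, was lower in both. The third gene of the set on this chromosome, Ndufb4, an accessory subunit of complex I, lies among the 288 and had 133, 122 and 129 FPKM. DNA copy number was not analysed here.

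**Figure D3:**
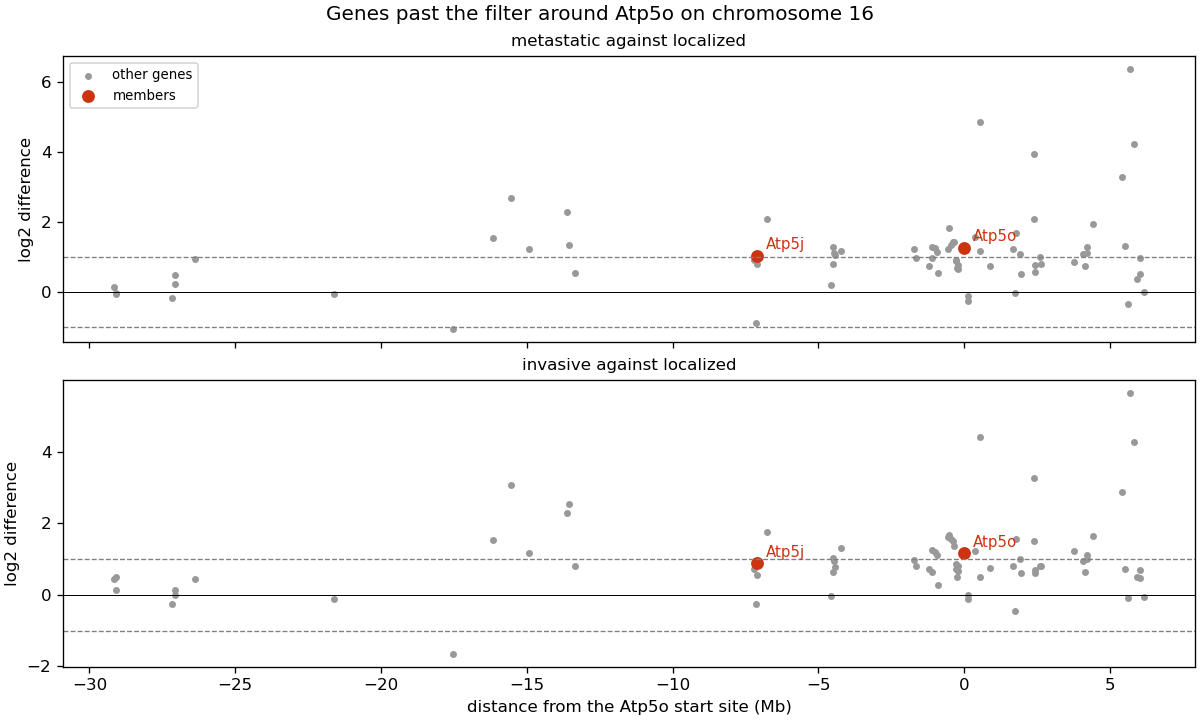
Each point is 1 gene past the filter, with its distance from the Atp5o start site in Mb on the horizontal axis and its log2 difference on the vertical axis, for metastatic against localized (top) and invasive against localized (bottom); red points are genes of oxidative phosphorylation and dashed lines mark 2-fold. Atp5o and Atp5j lie within the range of the genes around them, most of which are above 0.

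Position was then described for all of the genes past the filter, an addition made after these values were seen. Each gene was set beside the median of the genes within 2.5 Mb, for the 75 genes with at least 5 such neighbours. Across these 75 genes the Pearson correlation was 0.62 (Spearman 0.46) for invasive against localized. It was 0.50 (0.47) for metastatic against localized, and 0.54 (0.37) for the metastatic over the invasive library. Without Atp5o, Pearson's coefficient was 0.52, 0.39 and 0.54 in that order. A gene and its neighbours are measured in the same libraries, and neighbouring genes share windows, so the points are not independent and no p-value is given. In windows of 1 Mb and 5 Mb the Pearson correlation for metastatic against localized was 0.49 and 0.58.

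Chromosome 19 had the lowest median of all chromosomes for invasive against localized. Its 4 genes of the set, Cox8a, Ndufb8, Ndufs8 and Ndufv1, had a median of -0.45 for invasive against localized, and all 409 genes of that chromosome past the filter had -0.36. For metastatic against localized the medians were -0.30 and -0.31. Ndufb8 stood at -0.67 beside a neighbour median of -0.41 in the invasive comparison, and Cox8a at -0.38 beside -0.45. Ndufv1 stood at -0.53 beside -0.43, and Ndufs8 at -0.19 beside -0.44. For metastatic against localized Ndufs8 did not follow its neighbours, at 0.01 beside -0.33. On chromosome 4 the 4 genes, Ndufb6, Ndufs5, Sdhb and Uqcrh, had a median of -0.41 for invasive against localized, beside -0.25 for all 713 genes. The 3 X-linked genes, Cox7b, Ndufa1 and Ndufb11, had -0.26 for metastatic against localized, beside -0.23 for the 350 genes of the chromosome. Elsewhere genes of the set went against their chromosome. For metastatic against localized the 6 on chromosome 13 had a median of 0.16 beside -0.12 for all genes there. For invasive against localized the 5 on chromosome 9 had 0.13 beside -0.07, and the 5 on chromosome 15 had -0.03 beside 0.11.

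For Ndufv3 and Cox7a1 the median of the neighbours was near 0. Ndufv3 (GRCm38 chromosome 17, 31520115 to 31531331, plus strand) stood at 0.99 and 1.01 for the invasive and metastatic libraries against the localized one, while 65 genes around it had medians of 0.02 and -0.03. At 1.5-fold, 5 of the 65 were higher and 7 lower for invasive against localized (15.1% and 11.9% of all genes were). For metastatic against localized the counts were 5 and 9 (15.9% and 14.1% of all genes). Among them Pde9a, 134 kb away, was higher (3.94 and 5.26) and Tff1, 355 kb away, lower (-2.23 and -4.49). Cox7a1 (chromosome 7, 30184144 to 30186078, plus strand) stood at -0.87 and -1.65, beside 0.02 and 0.00. Sdhc (chromosome 1, 171127165 to 171150603, minus strand) stood at 0.70 and 0.88, beside 0.31 and 0.22 for 35 neighbours, which were thus on the same side of 0 but less far from it. For invasive against localized, 29 of the 35 were positive (against 49.8% of all genes) and 10 were at least 1.5-fold higher (against 15.1%).

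**Figure D4:**
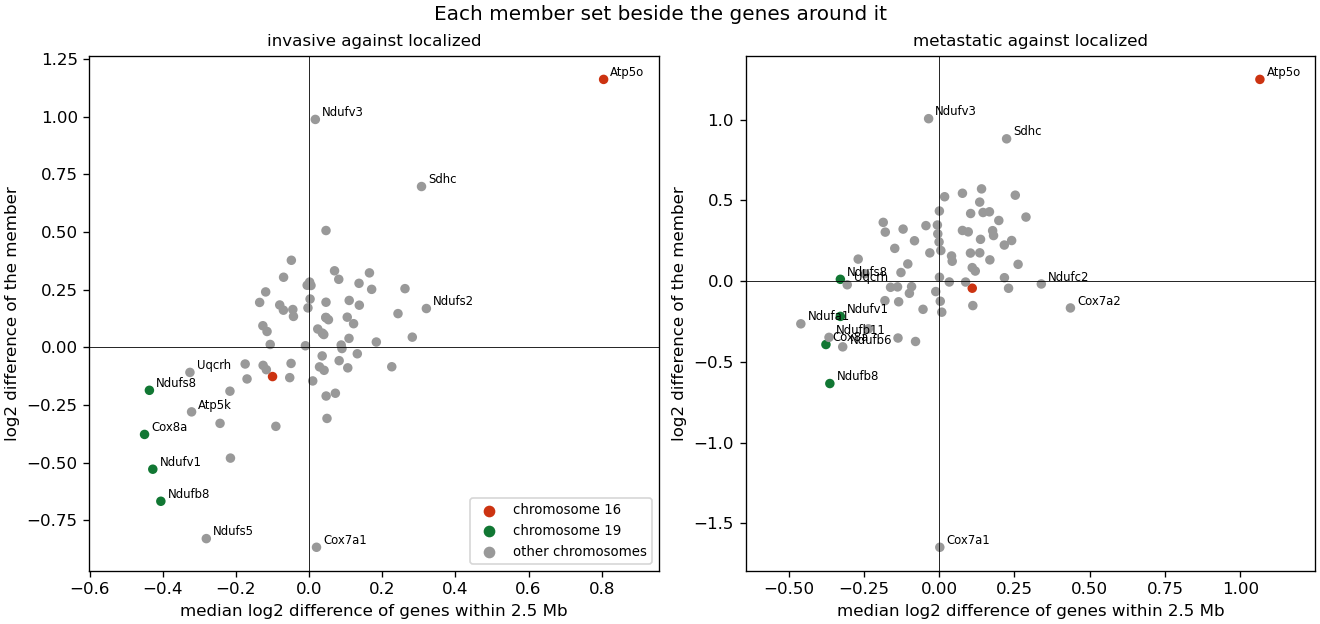
Each point is 1 gene of oxidative phosphorylation with at least 5 neighbours past the filter, with the median log2 difference of the genes within 2.5 Mb on the horizontal axis and its own log2 difference on the vertical axis, for invasive (left) and metastatic (right) against localized. Atp5o of chromosome 16 sits at the upper right, the 4 genes of chromosome 19 at the left, and Ndufv3 and Cox7a1 far from 0 with neighbour medians near 0.

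The tissue isoforms of complex IV were near 0 except for Cox7a1 and Cox6b2. In the COX4 pair, Cox4i1, the common form, had 496, 516 and 544 FPKM in the localized, invasive and metastatic libraries, whereas Cox4i2, a form of lung that is known as a target of hypoxia signalling, had 0.0399 FPKM in the localized library, an estimated 0.96 fragments, and was listed at 0 in the others. Ndufa4 had 289, 291 and 367 FPKM, and its hypoxia-linked relative Ndufa4l2 had 0.334 FPKM in the localized library, an estimated 11.1 fragments, and was at 0 in the invasive and metastatic libraries. In the COX6A pair the common Cox6a1 had 454, 430.3 and 608 FPKM and the muscle form Cox6a2 had 0.0912 FPKM in the localized library, an estimated 1.99 fragments, and 0 in the others. Cox7b2, Cox8b and Cox8c, forms of testis or muscle, were at 0 in every library, beside 109, 112 and 125 FPKM for Cox7b and 661, 509 and 504 FPKM for Cox8a. All of these levels held with a treatment text that describes cobalt chloride for each line, and no untreated library was analysed here.

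Cox7a1, the form of COX7A used in heart, skeletal muscle and brown fat, was the only gene of the set that stepped down by 1.5-fold or more at each stage. It had 9.87, 4.96 and 2.47 FPKM in the localized, invasive and metastatic libraries, about 107, 48.7 and 25.6 fragments. The invasive level was 0.503 times the localized level (95% counting interval 0.353 to 0.716), the metastatic level 0.498 times the invasive level (0.300 to 0.824), and the metastatic level 0.250 times the localized level (0.159 to 0.393). Of all genes, 1.54% were at least 1.5-fold lower at both steps and 1.47% higher, against 1 and 0 of the 78. Cox7a1 made up 2.88%, 1.58% and 0.784% of the summed FPKM of the COX7A group, in which the common Cox7a2 had 136, 137 and 122 FPKM and Cox7a2l, which helps to join complexes III and IV, had 197, 171 and 191 FPKM. Of the 12 muscle markers only cardiac troponin T, Tnnt2, passed 1 FPKM, with 13.91, 34.39 and 21.996 FPKM, and Ckm, Myh1, Myh2, Myh4, Myh6 and Myh7 were at 0 in all 3. The 5 brown fat markers summed to 0.781, 1.06 and 1.43 FPKM. Of these, 2, Ucp1 and Elovl3, were at 0 in all 3 libraries, and only Ppargc1a reached 1 FPKM, in the metastatic library. The order of Cox7a1 is that of the summed fibroblast markers given above. The 6 acinar markers, mostly Cela1, summed to 7.61, 1.20 and 0.465 FPKM and had the same order. Of the 6 fibroblast markers past the filter, 4 were lower in the metastatic than in the invasive library, and 2, Pdgfra and Pdgfrb, were higher. The part of either list in the order of Cox7a1 was not tested.

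Cox6b2, the testis form of COX6B, had 1.43, 0.0744 and 1.41 FPKM in the localized, invasive and metastatic libraries, an estimated 15.2, 0.72 and 14.4 fragments, so that the invasive library stood alone at the low end. The common form Cox6b1 had 372, 460 and 504 FPKM and made up 99.6% or more of the group in each library. The 8 testis germ cell markers summed to 0.245, 0 and 0 FPKM. The 3 genes for the c ring of the ATP synthase encode the same mature protein. The share of Atp5g2 fell over the 3 libraries while those of Atp5g1 and Atp5g3 rose. Atp5g1 held 11.95%, 13.1% and 14.2% of their summed FPKM, Atp5g2 47.3%, 42.7% and 40.8%, and Atp5g3 40.7%, 44.2% and 44.98%.

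**Figure D5:**
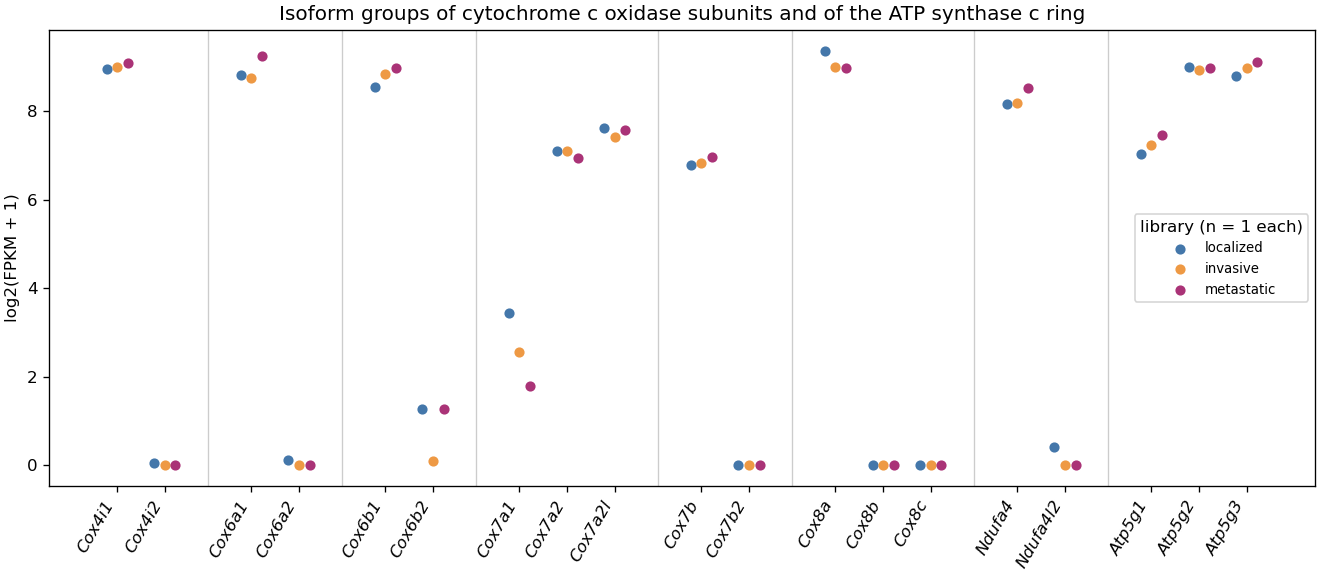
Each point is 1 gene in 1 library, with log2(FPKM + 1) on the vertical axis and the genes grouped by isoform family on the horizontal axis, with colours for the 3 libraries (n = 1 each). The common forms lie between 109 and 661 FPKM, most tissue forms are at or near 0, and Cox7a1 steps down over the 3 libraries.

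For the genes that help to build and feed these complexes, the share within 1.5-fold for metastatic against localized was 93.3% of the complex I assembly factors, 86.4% of those of complex IV and 85.7% of the carrier and coenzyme Q genes. It was 92.3% of the 78 genes of the complexes themselves and 70.0% of all genes. Of all genes, 14.8% were 2-fold apart between the invasive and localized libraries and 16.4% between the metastatic and localized ones. Between the metastatic and invasive libraries that share was 3.01%. Of the 15 assembly factors of complex I past the filter, 0 were 2-fold apart in any pair, and the largest difference was that of Ndufaf2, with 39.6, 20.6 and 24.5 FPKM in the localized, invasive and metastatic libraries. Of the 22 assembly factors of complex IV, 0 were 2-fold apart, and Coa5 had the largest difference, with 18.7, 28.2 and 32.9 FPKM, followed by Coa3 with 73.8, 114 and 123 FPKM. The 2 factors of complex II, Sdhaf1 and Sdhaf2, had medians of -0.27 and -0.07 for the invasive and metastatic libraries against the localized one, the 4 of complex III -0.14 and 0.06, and the 3 genes for ATP synthase assembly and its inhibitor -0.06 and -0.11. Among 14 genes of electron carriers and coenzyme Q synthesis past the filter, 0 were 2-fold apart. Cytochrome c itself, Cycs, had 46.6, 35.1 and 52.5 FPKM, and the methyltransferase Coq3 had 8.95, 4.999 and 5.37 FPKM. The 77 genes of the mitochondrial ribosome had medians of -0.07 and 0.02 against the localized library. For metastatic against invasive their median was 0.13 with 83.1% positive, beside 0.09 and 74.4% for the genes of the complexes. Among the 77, only Mrpl33 was 2-fold apart in any pair, with 87.5 against 182 FPKM in the invasive and localized libraries.

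The tricarboxylic acid cycle, which supplies NADH and succinate, had medians of 0.20 (invasive) and 0.43 (metastatic) against localized over 14 genes. None of the 14 was 2-fold apart in any pair, where 16.4% of all genes were for metastatic against localized. At 1.5-fold in that comparison 0 of 14 were lower (against 14.1% of all genes) and 3 were higher (against 15.9%). These were Idh2 (87.6, 138 and 140.2 FPKM in the localized, invasive and metastatic libraries), Ogdh, of the oxoglutarate dehydrogenase (19.5, 27.9 and 36.7 FPKM), and Fh1, fumarase (49.3, 64.5 and 74.9 FPKM). Among carriers and pores of the mitochondrial membranes, only Ucp2 of 7 genes passed 2-fold. Ucp2, an uncoupling protein family member that exports C4 metabolites, had 32.8, 110.6 and 106 FPKM. The share of all genes past 2-fold was 14.8% between the invasive and localized libraries and 16.4% between the metastatic and localized ones. In a list of 7 genes a count of 1 does not stand out from these shares. The pore Vdac2 had 170.4, 283 and 256 FPKM and the nucleotide carrier Slc25a4 528, 354 and 425 FPKM. Of 8 hypoxia-linked mitochondrial genes, 0 were 2-fold apart, but for metastatic against localized 3 were higher and 1 lower at 1.5-fold, with a median of 0.38. The share within 1.5-fold was 50%, against 70.0% of all genes. Among the higher genes was Bnip3l, a mitophagy receptor (61.4, 106 and 98.1 FPKM in the localized, invasive and metastatic libraries). Lonp1, the protease known to degrade the Cox4i1 protein under hypoxia, had 49.4, 74.7 and 78.3 FPKM, and Higd1a, a small protein that binds complex IV, had 70.7, 40.005 and 44.3 FPKM.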

How the data were processed

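The authors deposited 1 table of FPKM, with a column per library, and this unit is named per the file headers and file name. Per the submitters' processing notes, GRCm38, Cufflinks 2.2.1, STAR 2.5.2a and FastQC 0.11.2 were used, with no role or order, and strandedness and annotation release are not given in the sources used here. Overlapping and antisense genes therefore cannot be told apart. The lowest deposited value was 0.1 in every column, and 0.1 was subtracted. Of 22784 table entries, 27 with a date number for a name and 23 short RNAs were left out. Differences are in log2(FPKM + 1), with a filter of a mean of at least 1 FPKM and calls at 2-fold and 1.5-fold. With 1 library per group no test was made.

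Depth was estimated from low genes with 1 transcript of 1000 to 6000 bases, as the depth at which FPKM times the length, less 180 bases, gave whole fragments. Within 0.08 of a fragment, 80.6%, 80.7% and 80.0% of values were whole in the localized, invasive and metastatic libraries, against 16% if evenly spread. Fragments of short transcripts rest on an assumed fragment length. Positions are from GENCODE M21, and 85 genes were matched. A search of GENCODE transcripts found a pseudogene copy of at least 95% identity for 10 of the 85, among them Atp5l, Atp5o and Ndufs5, so their levels are less certain. The scripts were tested on simulated data and used Python 3.11.15, pandas 2.3.3, numpy 2.4.6 and scipy 1.17.1. The gene set and the lists were chosen with earlier results of these data known. Named genes are the 5 furthest in each direction per comparison, those past 2-fold, the extremes of each complex and the isoform groups; other examples were chosen after their values were seen. Some items, a few genes and part of the genotype among them, are not reported here.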

Additional observations from a re-analysis of the deposited data

How the results depend on the processing

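Each value was recomputed with pseudocounts of 0.1 and 0.5 FPKM, without the filter, with each library scaled to the same sum or by the median ratio, and with nothing subtracted. Scaling moved the median of all genes to at most 0.02. The median was taken over the 78 genes, or over all 85 without the filter. It ranged from 0.02 to 0.06 for invasive against localized, from 0.10 to 0.15 for metastatic against localized, and, against invasive, from 0.08 to 0.11. Of 150 summary values, 142 moved by less than counting error or 1.5-fold in a count. Without the filter the complex IV median was 0 (metastatic against localized) and 0.0029 (metastatic against invasive), since genes at 0 enter it, and Cox6b2 added 1 gene at least 2-fold lower in the invasive than in the localized library and 1 higher in the metastatic than in the invasive library. With a 1.5-fold call 4 genes were higher and 3 lower for invasive against localized, 2 lower for metastatic against localized, and 1 lower against invasive. No called gene changed direction, and 2 differences of Cox7a1 moved, both to -0.98 with a pseudocount of 0.1. No paired analysis was possible because each stage has 1 library. With 1 library per line no difference has a replicate check, and isoforms with few fragments are also limited by depth.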
